A study of Mus musculus with 15 samples.

Results

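The S100a genes encode small calcium-binding proteins, and 8 of them were followed across macrophages sorted from mouse gliomas: S100a1, S100a4, S100a6, S100a8, S100a9, S100a10, S100a11 and S100a13. They were chosen by gene symbol, which makes them 8 of the 55486 genes in the deposited count table, and all 8 were among the 14843 genes with enough reads to test. Each S100 protein carries a pair of EF-hands, the helix-loop-helix fold that binds a calcium ion, and most work as dimers that change shape when calcium rises and then grip a partner protein. S100a10 is the exception, since it has lost calcium binding and forms a stable complex with annexin A2 at the plasma membrane. S100a8 and S100a9 pair into calprotectin, which fills the cytoplasm of neutrophils and is also made by monocytes. S100a4, S100a6 and S100a11 are general cytoplasmic members that bind myosin, cytoskeletal proteins or annexins, and in immune cells they are well expressed by cells of the monocyte lineage.

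The samples were 15 libraries of macrophages purified by cell sorting from brain tumours of mice with the genotype Ink4a/ArfKO, PDGFB, a genetically engineered glioma model in which platelet-derived growth factor b is expressed in Nestin-positive progenitor cells and the Ink4a/Arf locus is knocked out. The genotype is the same in all groups, the labels name no treatment, age or strain, and no tumour-free brain was used here. Resident microglia and monocyte-derived macrophages (MDM), the progeny of blood monocytes, were each sorted into lipid-laden and non-lipid-laden cells. Microglia gave 4 non-lipid-laden and 4 lipid-laden libraries, MDM gave 4 and 3, and "microglia" and "MDM" without a further word mean the non-lipid-laden cells below. Each library carries 1 of the numbers 224, 221, 431 and 718, and number 431 has no lipid-laden MDM among them. What the number stands for is not spelled out, nothing in the labels says that the libraries came from separate animals, and p-values therefore measure the spread between these libraries, which may be partly technical.

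The libraries held between 7798952 and 11419338 counts. Microglia markers and monocyte markers followed the labels in the non-lipid-laden cells. P2ry12, a purinergic receptor of resident microglia, averaged 979.8 CPM (counts scaled to a common library size) in microglia and 147 in MDM, and Ccr2, the chemokine receptor of blood monocytes, averaged 8.46 CPM in microglia and 959 in MDM. Lipid-laden MDM lay between them, with P2ry12 at 488 and Ccr2 at 215 CPM. On the first principal component of all tested genes (36.2% of the variance) the lipid-laden MDM also lay between the MDM and the microglia of both kinds. On the second (11.1%) the lipid-laden microglia and lipid-laden MDM of number 221 stood apart from the rest, at 119 and 67.4 against at most 29.2 elsewhere.

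All 8 genes lie on chromosome 3 within 3.05 Mb (mouse build mm10), in one tight run and one distant pair. S100a1 spans 90511034 to 90514392 on the minus strand, and S100a13 starts after a gap of 42 bases, at 90514435, on the plus strand and ends at 90524581. S100a4 spans 90603771 to 90606045 and S100a6 spans 90612882 to 90624181, both on the plus strand and 6836 bases apart. S100a8 spans 90668978 to 90670035 on the plus strand, 22596 bases from S100a9 at 90692632 to 90695721 on the minus strand. S100a11, at 93520488 to 93526287, and S100a10, at 93555080 to 93564643, lie 2824766 bases past S100a9, both on the plus strand. The Ensembl identifiers in the table are ENSMUSG00000044080 for S100a1, ENSMUSG00000001020 for S100a4, ENSMUSG00000001025 for S100a6, ENSMUSG00000056054 for S100a8, ENSMUSG00000056071 for S100a9, ENSMUSG00000041959 for S100a10, ENSMUSG00000027907 for S100a11 and ENSMUSG00000042312 for S100a13.

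The stretches just upstream of the genes that separated the groups most are shown here, together with the short interval that S100a1 and S100a13 share. They come from RefSeq (GRCm38.p6) and stop before the first annotated exon. RefSeq windows were matched for 7 of the 8 genes, S100a10 being the one without. Each is printed 5′ to 3′ along the strand of its gene, and capitals mark matches, on either strand, to the 4 motifs searched: TGANTCA for AP-1, TATAAA for the TATA box, GAGGAAGT for PU.1 and ACGTG for the core of the hypoxia response element.
S100a11, chr3:93520246-93520487, plus strand: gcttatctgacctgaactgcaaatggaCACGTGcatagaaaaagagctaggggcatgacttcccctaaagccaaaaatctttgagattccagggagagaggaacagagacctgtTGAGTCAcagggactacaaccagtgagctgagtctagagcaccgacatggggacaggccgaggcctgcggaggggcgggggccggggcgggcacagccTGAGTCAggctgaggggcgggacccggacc
S100a6, chr3:90612644-90612881, plus strand: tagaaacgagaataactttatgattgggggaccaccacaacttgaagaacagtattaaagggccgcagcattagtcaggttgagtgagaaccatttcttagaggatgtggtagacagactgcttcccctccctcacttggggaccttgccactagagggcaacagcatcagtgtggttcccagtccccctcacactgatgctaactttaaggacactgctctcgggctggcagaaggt
S100a4, chr3:90603520-90603769, plus strand: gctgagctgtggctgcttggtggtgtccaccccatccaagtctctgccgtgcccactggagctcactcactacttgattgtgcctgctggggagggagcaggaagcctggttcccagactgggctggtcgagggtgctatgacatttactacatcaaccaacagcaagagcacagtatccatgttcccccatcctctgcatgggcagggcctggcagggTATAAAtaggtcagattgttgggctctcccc
S100a13 and S100a1, chr3:90514393-90514434, read toward S100a13 on the plus strand: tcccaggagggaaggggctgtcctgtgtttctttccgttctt
The S100a11 stretch held 2 copies of the AP-1 motif, both TGAGTCA, and 1 CACGTG, in which ACGTG is read once on each strand. Among the 32851 RefSeq promoter windows trimmed to the same length, 6.6% held the AP-1 motif and 16.1% held ACGTG. The S100a4 stretch held 1 TATAAA close to its start site, which 12.4% of windows of its length also held. None of the 4 motifs was found in the S100a6 stretch or in the 42 bases between S100a1 and S100a13. Of the stretches not printed, that of S100a8 held 1 match to the PU.1 motif, as did 1.7% of windows of its length, and that of S100a9 held none of the 4.

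Compared per length, as CPM per kilobase of exon (RPKM), different members led in microglia and in MDM. In microglia the 2 divergent neighbours led, with S100a1 at 69.6 ± 23.7 RPKM (SD, n = 4) and S100a13 at 58.1 ± 2.31, ranges that overlap. S100a10 followed at 15.3 ± 8.74, S100a11 at 8.97 ± 3.37 and S100a6 at 2.85 ± 2.56, then S100a8 at 2.66 ± 3.53, S100a9 at 1.74 ± 2.21 and S100a4 at 0.303 ± 0.231. In MDM S100a11 led at 274 ± 28.4 RPKM (SD, n = 4), followed by S100a6 at 112 ± 9.34, with no overlap between their libraries. This order rests on the exonic lengths, 511 bases for S100a11 and 1367 for S100a6, taken over all annotated exons of each gene. In CPM S100a6 averaged 153 and S100a11 140 in MDM, with overlap. S100a1 at 94.6 ± 8.18 and S100a13 at 91.6 ± 10.5 overlapped each other in MDM, S100a10 stood at 60.03 ± 10.0, S100a4 at 3.87 ± 1.06 and S100a8 at 3.41 ± 1.03, and S100a9 had no count. In lipid-laden microglia the order of the 8 means was that of microglia, from S100a1 at 93.2 ± 34.7 RPKM (SD, n = 4) to S100a4 at 0.317 ± 0.236. In lipid-laden MDM S100a1 at 95.1 ± 33.2, S100a13 at 72.03 ± 26.3 and S100a11 at 67.5 ± 12.3 RPKM (SD, n = 3) overlapped one another, S100a10 and S100a6 overlapped at 26.1 ± 10.3 and 22.1 ± 9.69, and S100a4 was lowest at 0.948 ± 0.196.

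**Figure D1:**
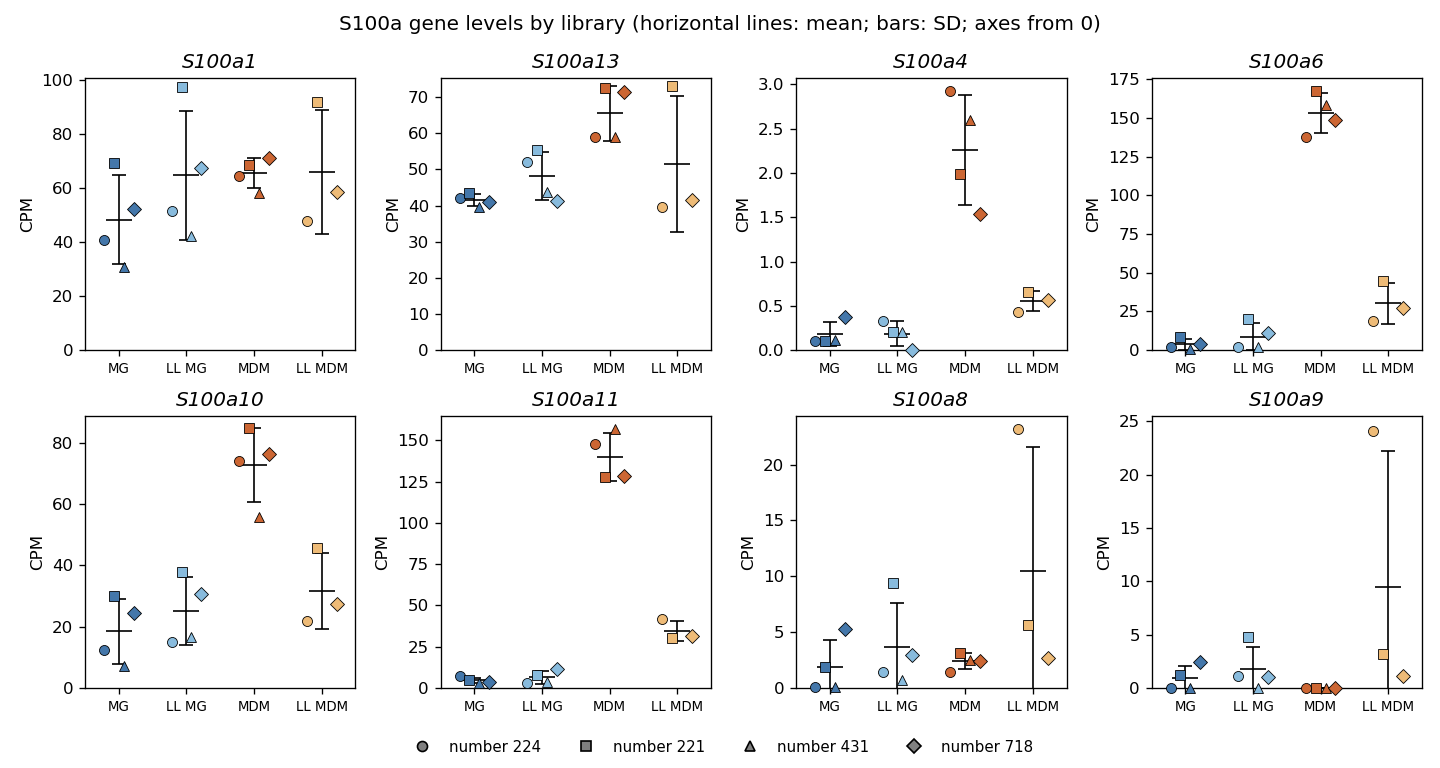
Level of each of the 8 S100a genes in CPM (y axis, from 0, own scale per panel) in the 4 groups (x axis); MG is microglia and LL lipid-laden, each point is 1 library, its shape gives the library's number, horizontal lines are means and bars SD. S100a11 and S100a6 are high in the 4 MDM libraries (128 to 157 CPM and 138 to 167 CPM) and lower in lipid-laden MDM, and S100a8 and S100a9 are highest in the lipid-laden MDM library of number 224, at 23.1 and 24.1 CPM.

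The first comparison asked how the macrophages of blood origin differ from resident microglia. By edgeR's quasi-likelihood test at an adjusted p under 0.05, S100a6, S100a10, S100a11 and S100a13 were higher in MDM than in microglia and none of the 8 genes was lower. Over all 14843 genes tested, 23.2% were called in this comparison, 10.7% higher and 12.5% lower in MDM. S100a4 was called higher as well, but it passed the filter on low counts only through the MDM, so it had to differ and its call is not counted beside these shares. The median log2 fold change was 1.31 over the 8 genes, S100a4 among them, and -0.12 over all genes tested. With S100a9 at the bound given below the median of the 8 is the same. Without S100a4 the median is the value of S100a13, 0.66. In bulk libraries such as these, fewer cells of a type and less RNA per cell cannot be told apart. In the same 4 genes every MDM library lay above every microglia library (also in S100a4, not counted), an arrangement found for 13.8% of all genes tested.

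S100a11, which binds annexin A1, separated the origins most clearly. Microglia had 6.99, 4.65, 3.16 and 3.54 CPM in libraries 224, 221, 431 and 718, and MDM had 148, 128, 157 and 128 CPM in the same order. The lowest MDM library was far above the highest microglia library. The log2 fold change was 4.93 ± 0.41 SE (adjusted p = 9.45e-07), and the microglia mean was 3.27% of the MDM mean.

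S100a6, or calcyclin, a partner of several annexins and of the ubiquitin-ligase adaptor CacyBP, showed a difference of the same order. Microglia had 2.04, 8.78, 0.818 and 3.92 CPM in libraries 224, 221, 431 and 718, while MDM had 138, 167, 159 and 149 CPM. The microglia libraries spread widely (SD 3.50 CPM around a mean of 3.89), with number 221 highest and 431 lowest, and none came near the MDM. The log2 fold change was 5.28 ± 0.77 SE (adjusted p = 0.000142), and the microglia mean was 2.54% of the MDM mean. For comparison, over the 17 monocyte and MDM markers the median of this percentage was 4.47%.

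S100a10, the annexin A2 partner also called p11, was present in both origins. Its level was 12.5, 30.2, 7.13 and 24.4 CPM in microglia 224, 221, 431 and 718, and 74.02, 84.8, 55.95 and 76.3 CPM in MDM. The groups did not overlap, although microglia 221 and 718 were well above microglia 431. S100a10 was higher in MDM by 1.97 on the log2 scale ± 0.42 SE (adjusted p = 0.00289), with the microglia mean at 25.5% of the MDM mean.

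S100a4, which binds non-muscle myosin and is known from motile and fibroblast-like cells, was counted at very low depth. The 4 microglia libraries held 1, 1, 1 and 3 counts and the MDM libraries 29, 17, 20 and 17 counts (1.54 to 2.92 CPM), without overlap. The log2 fold change was 3.59 ± 1.07 SE (adjusted p = 0.0238). The call was lost without microglia 224 (adjusted p = 0.0643), 221 (0.0627) or 431 (0.0610), without MDM 224 (0.0543), and without a filter on low counts (0.0793). The gene model of S100a4 shares 302 of its 584 exonic bases (51.7%) with that of Gm42674 on the same strand, which had 0 counts in all 15 libraries; the rule for reads in the shared stretch is not known here, and the S100a4 level may be too low.

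S100a13 and S100a1 differed less between the origins. S100a13, a partner in the non-classical release of FGF1 and interleukin 1 alpha, had 42.1, 43.4, 39.5 and 41.1 CPM in microglia 224, 221, 431 and 718 and 58.9, 72.5, 59.1 and 71.5 CPM in MDM. The groups did not overlap, and the microglia libraries lay close together. S100a13 was 1.58-fold higher in MDM (log2 fold change 0.66 ± 0.20 SE, adjusted p = 0.0251), a call lost without MDM 221 (0.0647) or 718 (0.0643) or without microglia 431 (0.0540) or 718 (0.0573). Without microglia 431 both S100a4 and S100a13 drop out and 3 of the 8 genes are called. S100a1, best known as a regulator of calcium handling in heart muscle, had 40.8, 69.1, 30.9 and 52.3 CPM in microglia and 64.7, 68.5, 58.2 and 71.3 CPM in MDM. These overlapped through microglia 221, and the log2 fold change of 0.44 ± 0.29 SE did not pass (adjusted p = 0.291). In MDM S100a1 and S100a13 had similar levels, and the 42 bases between their starts are printed above.

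**Figure D2:**
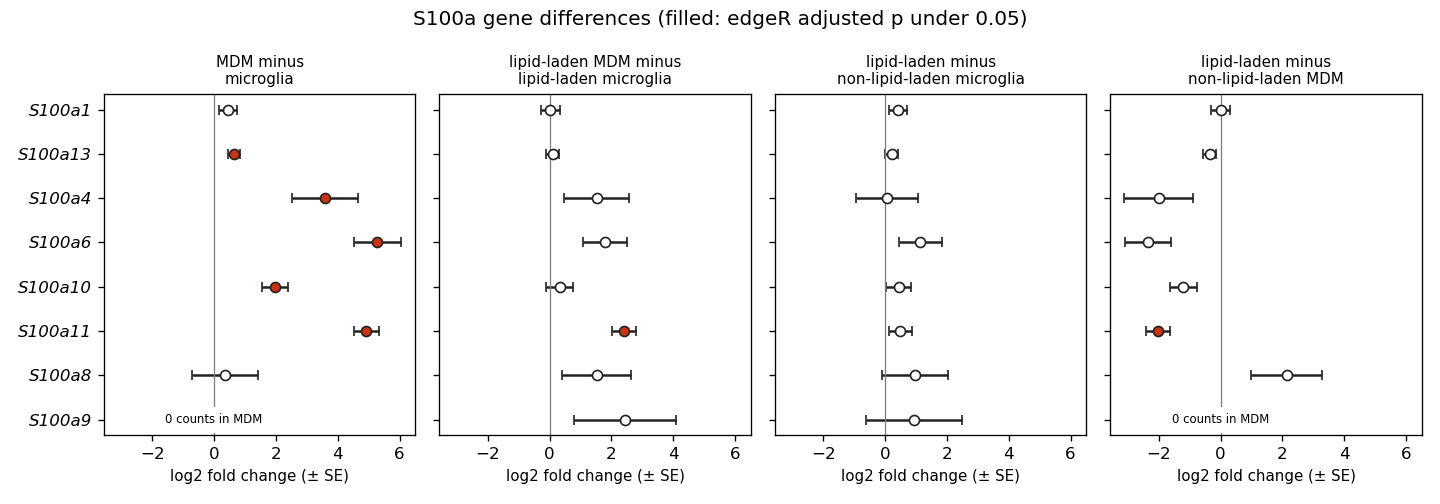
Log2 fold change with its SE (x axis) of the 8 S100a genes (y axis) in 4 comparisons (panels); filled points passed edgeR's test at an adjusted p under 0.05, and S100a9 is not plotted where MDM held 0 counts. S100a11 passes in 3 panels, with 4.93 and 2.41 for the 2 origin comparisons and -2.02 for lipid-laden against other MDM, and no gene passes in microglia.

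The calprotectin genes did not follow this pattern. S100a8 had 0.108, 1.86, 0.117 and 5.31 CPM in microglia 224, 221, 431 and 718 and 1.41, 3.15, 2.47 and 2.45 CPM in MDM, with overlap (log2 fold change 0.36 ± 1.07 SE, adjusted p = 0.853). S100a9 had 0, 12, 0 and 19 counts in the 4 microglia libraries and 0 in each MDM library. Set against 3 counts over the 4 MDM libraries (0.0806 CPM), which a count of 0 allows, the microglia level was at least 10.9-fold higher, but the difference did not pass (adjusted p = 0.0672, and 0.0208 with DESeq2). The microglia counts came from number 221 and 718 only, and without microglia 718 the bound was 5.41-fold. The same MDM libraries held 14 to 27 counts of S100a8 each.

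Few other genes in the same stretch of chromosome 3 could be tested. From the start of S100a1 to the end of S100a10 the table holds 122 genes, the 8 included, and of the others only 4 were tested. S100a16, between S100a13 and S100a4, was lower in MDM by a log2 fold change of -2.86 ± 0.61 SE (adjusted p = 0.00313). S100a5, between S100a4 and S100a6, had 57 counts over the 4 MDM libraries and 0 over the microglia libraries, at least 18.1-fold when microglia are set at 3 counts. It was called higher in MDM (adjusted p = 0.0275), but like S100a4 it passed the filter only through the MDM and had to differ. Gm4202 and Rplp0-ps1, between S100a9 and S100a11, were not called.

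**Figure D3:**
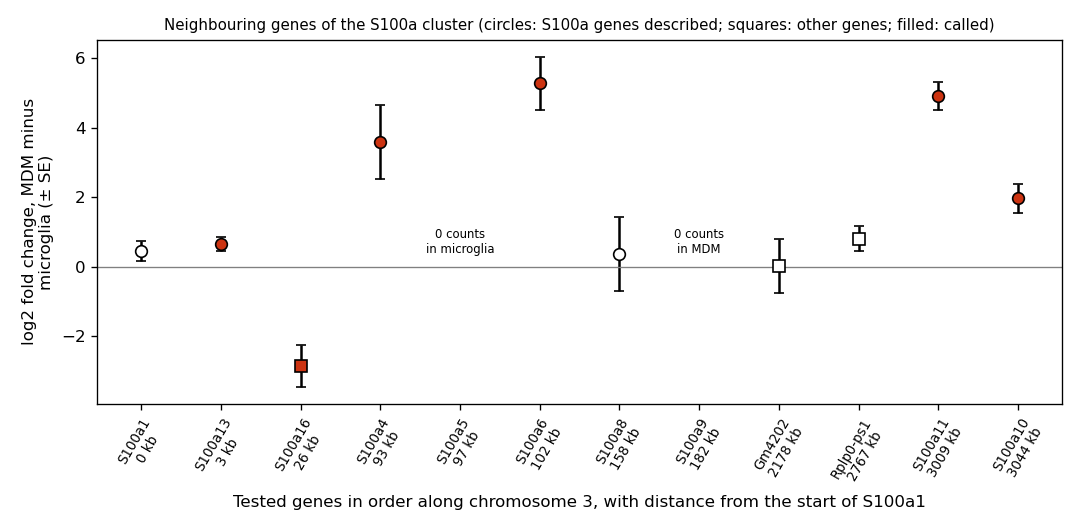
Log2 fold change of MDM against microglia with its SE (y axis) for the 12 tested genes of the chromosome 3 stretch in their order (x axis, with distance from the start of S100a1 in kb); circles are the 8 S100a genes, squares other genes, filled symbols passed edgeR's test, and S100a5 and S100a9 are marked rather than plotted because 1 group held 0 counts. The called genes lie in both parts of the stretch, with S100a16 the only one below 0, and S100a4 and S100a5 entered the test only through the MDM.

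Among lipid-laden cells the origins differed in 1 of the 8 genes, S100a11, which was higher in MDM. Over all genes tested 2.78% were called (2.20% higher and 0.579% lower in lipid-laden MDM). The median log2 fold change was 1.52 for the 8 genes and -0.03 for all genes. That of the 8 lies between S100a4, on 16 against 7 counts, and S100a8, whose libraries overlapped. Without S100a4 the median is the value of S100a8, 1.52, which fell to 0.18 without lipid-laden MDM 224. The median therefore does not show a shift of the 8 genes as a set. S100a11 stood at 41.8, 30.4 and 31.4 CPM in lipid-laden MDM 224, 221 and 718 and at 2.90, 7.73, 3.50 and 11.7 CPM in lipid-laden microglia 224, 221, 431 and 718. The groups did not overlap, and the log2 fold change was 2.41 ± 0.38 SE (adjusted p = 0.00242). With only these 2 groups in the fit the adjusted p was 0.0582.

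The other 7 genes did not pass between lipid-laden MDM and lipid-laden microglia. S100a6 had 18.8, 44.7 and 26.9 CPM in lipid-laden MDM 224, 221 and 718 and 1.89, 20.1, 1.75 and 10.9 CPM in lipid-laden microglia 224, 221, 431 and 718. Lipid-laden microglia 221 reached past the lowest lipid-laden MDM library, and the log2 fold change was 1.80 ± 0.70 SE (adjusted p = 0.230). Within the numbers S100a6 was higher in lipid-laden MDM in 3 of 3 pairs, as was S100a11, which holds for 17.7% of all genes tested. S100a4 had 4, 6 and 6 counts in lipid-laden MDM against 3, 2, 2 and 0 in lipid-laden microglia (log2 fold change 1.52 ± 1.06 SE, adjusted p = 0.573). For S100a11 every lipid-laden MDM library lay above every lipid-laden microglia library, an arrangement found for 7.35% of all genes tested. S100a4 lay so too and was higher in 3 of 3 pairs, but its nearest libraries held 4 against 3 counts (0.433 against 0.334 CPM). It entered the test only through the MDM and is not counted beside these shares. S100a1, S100a10 and S100a13 had log2 fold changes of 0.03 ± 0.31 SE, 0.33 ± 0.43 SE and 0.10 ± 0.21 SE, with overlapping libraries and adjusted p of 0.985, 0.811 and 0.902. S100a1 was lower in lipid-laden MDM in 3 of 3 same-numbered pairs (17.3% of all genes tested), against the sign of its log2 fold change, while S100a10 and S100a13 were each higher in 2 of 3. S100a8 and S100a9 had larger log2 fold changes of 1.52 ± 1.13 SE and 2.44 ± 1.64 SE with overlapping libraries (adjusted p = 0.603 and 0.561). Without lipid-laden MDM 224 they were 0.18 and 0.31.

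Within microglia, where the question was what comes with lipid load, none of the 8 genes was called, and edgeR called 0 of the 14843 genes tested (0%), with 1367 genes at an unadjusted p under 0.05. DESeq2 called 169 genes and limma-voom 0, none of them among the 8. All 8 log2 fold changes were above 0, between 0.07 (S100a4) and 1.14 ± 0.70 SE (S100a6, adjusted p = 0.669), with a median of 0.46 against -0.02 over all genes tested. S100a1 had 51.7, 97.3, 42.4 and 67.3 CPM in lipid-laden microglia 224, 221, 431 and 718, each above the microglia library of the same number, with a log2 fold change of 0.42 ± 0.28 SE (adjusted p = 0.715). S100a10, at 15.04, 37.96, 16.8 and 30.7 CPM, and S100a13, at 51.9, 55.4, 43.9 and 41.2 CPM, were also higher in 4 of 4 pairs, which holds for 10.2% of all genes tested. With the number as a block edgeR called 119 genes and again none of the 8.

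S100a11 in lipid-laden microglia ran from 2.90 to 11.7 CPM and overlapped microglia at 3.16 to 6.99 CPM (log2 fold change 0.49 ± 0.37 SE, adjusted p = 0.767). S100a8 had 1.45, 9.44, 0.721 and 2.95 CPM and S100a9 10, 48, 0 and 10 counts in lipid-laden microglia 224, 221, 431 and 718. Number 221 was highest for both. The log2 fold changes were 0.98 ± 1.07 SE for S100a8 and 0.93 ± 1.54 SE for S100a9 (adjusted p = 0.880 and 0.941), and without lipid-laden microglia 221 they were -0.11 and -0.35. That of S100a4, which rests on 6 against 7 counts, changed sign in 4 of the 8 fits that left out 1 library (-0.34 to 0.69).

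In MDM, lipid load came with less S100a11. Of the 8 genes S100a11 was lower and S100a9 higher in lipid-laden MDM, against 8.17% of all genes tested that were called (5.21% higher, 2.96% lower). The 8 genes, S100a4 among them, had a median log2 fold change of -0.78 (the same with S100a9 at its bound), all genes tested one of 0.04. Without S100a4 the median is the value of S100a13, -0.35. For S100a6, S100a10 and S100a11 every lipid-laden MDM library lay below every MDM library, which holds for 10.7% of all genes tested (S100a4 lay so too but entered the test only through the MDM), and S100a9 was the 1 gene with all above (11.1% of all genes).

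S100a11 stood at 41.8, 30.4 and 31.4 CPM in lipid-laden MDM 224, 221 and 718 against 148, 128, 157 and 128 CPM in MDM 224, 221, 431 and 718. The lipid-laden libraries lay close together and well under the others. S100a11 fell by 2.02 on the log2 scale ± 0.39 SE (adjusted p = 0.00474), to 24.6% of its mean in MDM. It passed without any 1 of the 7 libraries, with adjusted p from 0.00852 to 0.0305.

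S100a6 and S100a10 were also at lower levels in lipid-laden MDM but did not pass in edgeR. S100a6 averaged 30.2 ± 13.3 CPM (SD, n = 3) against 153 ± 12.8 (n = 4) in MDM, a log2 fold change of -2.34 ± 0.74 SE (adjusted p = 0.0629). S100a10 had 21.9, 45.6 and 27.3 CPM in lipid-laden MDM 224, 221 and 718, below the 55.95 to 84.8 CPM of MDM, a log2 fold change of -1.20 ± 0.45 SE (adjusted p = 0.114). Both passed with DESeq2 (adjusted p = 0.0350 and 0.0459), with limma-voom (0.000171 and 0.0263) and with only the MDM groups in the fit (0.000864 and 0.0270). In edgeR neither passed with any 1 of the 7 libraries left out. The adjusted p then ran from 0.0898 to 0.181 for S100a6 and from 0.0918 to 0.293 for S100a10. S100a4 had a log2 fold change of -2.004 ± 1.10 SE (adjusted p = 0.301) on 16 against 83 counts.

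S100a1 and S100a13 showed no such step. S100a1 had 47.7, 91.9 and 58.4 CPM in lipid-laden MDM 224, 221 and 718, around the 58.2 to 71.3 CPM of MDM, with a log2 fold change of 0.01 ± 0.31 SE (adjusted p = 0.999). S100a13 had 39.7, 73.1 and 41.7 CPM, where number 221 lay above every MDM library and the other two lay below all 4 (log2 fold change -0.35 ± 0.21 SE, adjusted p = 0.369). Without lipid-laden MDM 221 it was called lower, at -0.69 (adjusted p = 0.0495).

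Cell type markers moved in the same comparison. In lipid-laden against other MDM, 13 of 15 tested microglia markers were higher (median log2 fold change 1.66), and their summed level was 8206 to 12259 CPM against 2774 to 4606 CPM in MDM. Of 17 monocyte and MDM markers 3 were lower and none higher (median -1.04), with sums of 2527 to 3222 against 5196 to 5963 CPM. Of 11 tested conventional dendritic cell markers 7 were lower (median -3.24), with sums of 339.95 to 396 against 1793 to 3139 CPM. The mean level in lipid-laden MDM was 24.6% of that in MDM for S100a11, 19.7% for S100a6, 24.5% for S100a4 and 43.4% for S100a10, and the median over the monocyte and MDM markers was 48.6%. Of 13 glioma and progenitor markers 6 were higher (median 3.27), with sums of 111 to 202 against 16.9 to 30.6 CPM. No defining marker of these 4 lists was at 0 in all libraries, and the part of these shifts in the S100a values was not tested.

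The change with lipid load differed between the origins for S100a11. The difference of the log2 fold changes, MDM minus microglia, was -2.51 ± 0.53 SE (adjusted p = 0.0197), and 2.53% of all genes tested were called in this test (1.60% higher and 0.930% lower). Its parts were -2.02 in MDM and 0.49 in microglia. Without lipid-laden MDM 718 the difference was -2.45 and did not pass (adjusted p = 0.0622). S100a6 had a larger difference of -3.49 ± 1.01 SE that did not pass (adjusted p = 0.0812), and passed with DESeq2 at 0.0314. For S100a10 it was -1.64 ± 0.60 SE (adjusted p = 0.175). With the number as a block both passed, S100a6 at -3.88 (adjusted p = 0.00963) and S100a10 at -2.01 (adjusted p = 0.0102), although the numbers were taken to pair the libraries in microglia and between the lipid-laden origins only. The difference was for S100a13 -0.56 ± 0.29 SE (adjusted p = 0.362). In 11 of the 15 microglia markers the difference was called higher in MDM, and in none lower.

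S100a8 and S100a9 were highest in 1 library of lipid-laden MDM. S100a8 had 23.1, 5.62 and 2.65 CPM in lipid-laden MDM 224, 221 and 718 against 1.41 to 3.15 CPM in MDM, with overlap (log2 fold change 2.14 ± 1.14 SE, adjusted p = 0.286). S100a9 had 223, 29 and 12 counts (24.1, 3.19 and 1.13 CPM) in the same 3 libraries and none in MDM. With MDM set at 3 counts over its 4 libraries, lipid-laden MDM were at least 113-fold higher, and at least 25.9-fold without lipid-laden MDM 224. S100a9 passed (adjusted p = 0.0306), but not without lipid-laden MDM 224 (0.103) nor without MDM 224 (0.0680), 221 (0.0567), 431 (0.0594) or 718 (0.0650).

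Neutrophil markers were read beside them in every library, because calprotectin is abundant in neutrophils. Of 20 neutrophil markers 13 were tested. In lipid-laden against other MDM 1 was called higher and 1 lower (5.21% and 2.96% of all genes tested), and in microglia none. In MDM against microglia 5 were higher and 1 lower (10.7% and 12.5% of all genes tested). Between the lipid-laden origins 2 were higher and none lower (2.20% and 0.579%). Cd177 and Padi4, among the 5, and Padi4, among the 2, had 0 counts in microglia of both kinds. They passed the filter on low counts only through cells of MDM origin, so they could only be higher there. The sum of the 6 defining ones (Ly6g, Cxcr2, Retnlg, Camp, Ltf and Ngp) was 282 CPM in lipid-laden MDM 224 and 0.309 to 47.0 CPM in the other 14 libraries. Retnlg, a resistin-like protein of neutrophils, made up 256 CPM (2370 counts) of it, against 5.29 and 3.78 CPM in lipid-laden MDM 221 and 718. Ngp, a neutrophil granule protein, had 66 counts in the same library, while Ly6g and Camp had 0 counts in all 15 libraries. The 20 markers summed to 299 to 801 CPM in lipid-laden MDM, 979 to 1467 CPM in MDM, 282 to 423 CPM in microglia and 212 to 359.7 CPM in lipid-laden microglia. Most of these sums came from 1 gene per group in the non-lipid-laden cells. Il1r2, the decoy receptor for interleukin 1, made up 723 to 1255 CPM in MDM, and Csf3r, the receptor for granulocyte colony-stimulating factor, 226 to 320 CPM in microglia. S100a8 and S100a9 together ranked first in lipid-laden MDM 224 (47.3 CPM) and second in lipid-laden microglia 221 (14.3 CPM), where the defining markers stood at 33.5 CPM, nearly all of it Cxcr2 at 32.2 CPM. MDM 221 had more of the defining markers (47.0 CPM) and only 3.15 CPM of S100a8 and S100a9. The part of neutrophils in the S100a8 and S100a9 values was not tested.

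**Figure D4:**
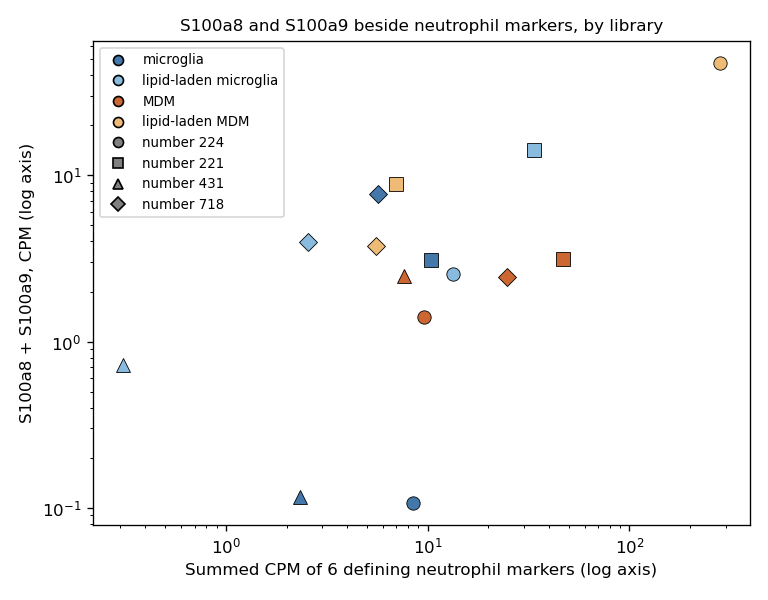
Summed CPM of S100a8 and S100a9 against the summed CPM of the 6 defining neutrophil markers, both on log axes, 1 point per library, coloured by group. Lipid-laden MDM 224 stands alone at 282 and 47.3 CPM, and the other 14 libraries lie between 0.309 and 47.0 CPM on the marker sum.

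Within the groups, several members were highest in the library of number 221. That library was the highest of its group for S100a6, S100a10 and S100a13 in 4 of 4 groups and for S100a1 in 3 of 4, and for S100a11 in none. Over all genes tested 3.13% had number 221 highest in all 4 groups, and this count was chosen after the values were seen. Taken as deviations of log2 CPM from the group means over the 15 libraries, S100a1, S100a6 and S100a10 had Pearson r of 0.922 (S100a1 with S100a6), 0.935 (S100a1 with S100a10) and 0.913 (S100a6 with S100a10). S100a8 and S100a9 had an r of 0.947, and S100a11 with S100a13 one of -0.21. These values describe 15 libraries that share numbers, groups and sequencing depth.

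Across the 15 libraries, the genes whose log2 CPM most resembled each member's differed by member, again as a description of libraries that share their groups. S100a11 was closest to Cfp, the complement factor properdin (r = 0.993), then to Ifitm6 (0.982) and Crip1 (0.978). S100a6 was closest to Cd47 (0.976), Prdx6 (0.976) and Cd40 (0.973), and S100a10 to Ifi209 (0.950), Ifi211 (0.949) and S100a6 (0.947). S100a4 was closest to Jpt1 (0.968), Macroh2a1 (0.961) and Rin3 (0.960), S100a1 to Sap30 (0.939), Tspan17 (0.936) and Xaf1 (0.922), and S100a13 to Ywhah (0.942), Ndufa6 (0.924) and Clic1 (0.916). For S100a8 the closest were Sash1 (0.867), Slc35a4 (0.840) and Psen2 (0.832), and for S100a9 Gpx3 (0.874), Lmbrd1 (0.846) and Necap2 (0.842).

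The annexins, the largest family of S100 partners, were partly higher in MDM as well. Of 9 tested annexins 4 were higher and 1 lower in MDM than in microglia, with a median log2 fold change of 0.78. Over all genes tested 10.7% were higher and 12.5% lower, with a median of -0.12, and these shares are also the background of the lists below. Anxa1, the partner of S100a11, was higher by 5.24 ± 0.90 SE (adjusted p = 0.000555), from 9.27 ± 6.80 CPM (SD, n = 4) in microglia to 351 ± 43.5 in MDM (n = 4). Anxa2, the partner of S100a10, was higher by 0.78 ± 0.23 SE (adjusted p = 0.0227), Anxa5 by 1.27 and Anxa6 by 0.95, and Anxa3 was lower at -0.75. With lipid load the highest Anxa2 level was in lipid-laden microglia. Anxa2 averaged 434 ± 124 CPM in microglia, 1078 ± 359 in lipid-laden microglia (n = 4 each), 745 ± 46.2 in MDM (n = 4) and 555 ± 87.0 in lipid-laden MDM (SD, n = 3). Its log2 fold change with lipid load was 1.31 ± 0.23 SE in microglia, where its adjusted p of 0.0717 was the smallest of all genes, and -0.42 ± 0.25 SE (adjusted p = 0.342) in MDM. The difference between the 2 was called (-1.74 ± 0.34 SE, adjusted p = 0.0124), the only annexin of the 9. In lipid-laden MDM 1 annexin was called, Anxa3 at 0.52 (adjusted p = 0.0300), and between the lipid-laden origins and in microglia none.

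Among 7 tested genes of other S100 partners, Ahnak, a giant scaffold protein that binds the complex of S100a10 and annexin A2, was called in the same directions as S100a11 in the origin and MDM comparisons. It was higher in MDM than in microglia by 4.11 ± 0.41 SE (adjusted p = 4.48e-06), higher in lipid-laden MDM than in lipid-laden microglia by 1.73 (adjusted p = 0.0247) and lower in lipid-laden than in other MDM at -1.52 ± 0.40 SE (adjusted p = 0.0289). Ryr1, the calcium release channel that S100a1 binds, was also called higher in MDM than in microglia (6.51, adjusted p = 0.000138). It had 6 counts over the 4 microglia libraries and passed the filter on low counts only through cells of MDM origin. Like S100a4 it had to differ, and its call is not counted beside the background shares. Il1a, a cargo of S100a13, was lower in MDM than in microglia (-1.59, adjusted p = 4.70e-06) and higher with lipid load in MDM (0.82, adjusted p = 0.00598). In the list 2 genes, Ryr1 among them, were thus called higher and 1 lower in MDM than in microglia. Between the lipid-laden origins 1 was higher, with lipid load in MDM 1 was higher and 1 lower, and none was called in microglia. In the difference between the lipid-load effects, MDM minus microglia, Ahnak (-2.39, adjusted p = 0.0297) and Ryr1 (-5.26, adjusted p = 0.0299) were called lower and Il1a higher (1.35, adjusted p = 0.00530). The microglia part of the Ryr1 difference rests on 51 counts in lipid-laden microglia against 6 in microglia.

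No receptor for secreted S100 proteins was called higher in MDM than in microglia. Of 7 tested, 1 was lower: Bsg, or basigin, a receptor for S100a9, at -0.83 ± 0.16 SE (adjusted p = 0.00139). Bsg was lower between the lipid-laden origins too (-0.82, adjusted p = 0.0179) and was the 1 receptor higher with lipid load in MDM (0.63, adjusted p = 0.0321). Tlr4, which calprotectin can engage, averaged 47.7 ± 12.1 CPM (SD, n = 4) in microglia and 23.7 ± 15.7 in MDM (n = 4) and was not called (-1.005 ± 0.46 SE, adjusted p = 0.132). Ager, which encodes the receptor for advanced glycation end products, stood at 2.43 ± 1.32 and 1.20 ± 1.26 CPM (SD, n = 4 each) and was not called (-0.99 ± 1.11 SE, adjusted p = 0.575).

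Other EF-hand genes gave a background for the family. Of 18 tested, 9 were higher and none lower in MDM than in microglia, with a median log2 fold change of 0.72. Among them were Chp1 (1.99), Lcp1 (0.92), which encodes the actin-bundling plastin of leukocytes, and Myl12a (0.74). Chp1 was lower (-1.24, adjusted p = 0.00142) and Aif1, or Iba1, higher (0.50, adjusted p = 0.0261) with lipid load in MDM, and Lcp1 was the 1 gene called between the lipid-laden origins, higher in MDM (0.58, adjusted p = 0.0491). Chp1 was also the 1 gene called in the difference between the lipid-load effects (-1.86, adjusted p = 0.00314). Of 10 genes in a list of further S100 genes, 4 were tested: S100a5 and S100a16, given above, S100b, the astrocyte and glial member, which was lower in MDM (-2.74 ± 0.69 SE, adjusted p = 0.00890), and S100pbp, which encodes a binding protein rather than an S100 protein and was not called (0.21 ± 0.56 SE). None of the 4 was called in the other comparisons.

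The lists for the remaining cell types were also counted in MDM against microglia. All 15 microglia markers were lower and 15 of 17 monocyte and MDM markers higher in MDM, as were 10 of 11 dendritic cell markers. Of the other monocyte and MDM markers Vcan, which encodes the matrix proteoglycan versican, was called lower in MDM (-3.99 ± 1.31 SE, adjusted p = 0.0384) and Ly6i was not called. Of the T, NK and B cell markers 6 were higher and 1 lower of 14, and of the glioma and progenitor markers 12 of 13 were lower. Astrocyte markers were lower in 1 of 8, oligodendrocyte and myelin markers higher in 1 and lower in 2 of 6, and endothelial and mural markers lower in 2 of 11. The summed glioma and progenitor markers, 187 to 588 CPM in microglia and 16.9 to 30.6 CPM in MDM, ran opposite to S100a6 and S100a11, and their part in the S100a values was not tested.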

How the data were processed

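RNA was isolated from sorted cells, copied from its poly(A) tail with an oligo-dT primer and template switching, and sequenced, per the labels' protocols. The authors deposited 1 table of whole-number read counts per gene, on the build mm10, per the submitters' processing notes (aligner, counter, strandedness: not given in the sources used here). Groups came from the sample titles. Counts were analysed in R 4.3.3 with edgeR 4.0.16: genes were kept by filterByExpr (minimum count 10, minimum total 15), libraries were scaled by TMM, and 1 quasi-likelihood fit of all 15 libraries gave 5 contrasts, with Benjamini-Hochberg adjustment over the 14843 genes tested and calls at an adjusted p under 0.05. CPM are counts per 1000000 of the TMM-scaled library size, and RPKM divide them by the exonic length in GENCODE M21. SE is the standard error of a log2 fold change. At 7798952 to 11419338 counts per library, low genes such as S100a4 and S100a9 carry large counting error. Alternatives used DESeq2 1.42.0, limma 3.58.1 (voom), other size factors, no filter, the number as a block, fewer groups and each library left out. The script was tested on simulated counts.

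The 8 genes, the 14 gene lists (other S100 genes, receptors, annexins, other partners, other EF-hand genes and 9 cell types) and the tests were chosen with earlier results of these data known. All 8 genes are named, with up to 4 genes per list of smallest p in MDM against microglia, up to 2 in the lipid-laden comparisons, defining markers, and the 3 genes of highest correlation with each member among those of an average log2 CPM of at least 3. One gene that this rule names is not reported here. Same-numbered libraries deviated together from their group means in microglia (r 0.124 to 0.256 for lipid-laden with non-lipid-laden) and between the lipid-laden origins (0.107 to 0.168), so the numbers were taken to pair these.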

Additional observations from a re-analysis of the deposited data

Results flagged for a closer look

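S100a4 in microglia had 1 library apart from the others. Number 718 stood at 0.379 CPM (3 counts) and the other 3 at 0.103 to 0.117 CPM (1 count each), a gap of 0.951 of the range of the group. This was 1 of 24 groups of 4 libraries checked in this way, and chance marks about 1 in 20. The counts are too few for the gap to be told apart from counting error.

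The effect of lipid load on S100a11 differed between the origins by -2.51 on the log2 scale (adjusted p = 0.0197 in edgeR). The effect was -2.02 in MDM and 0.49 in microglia. The difference did not pass without lipid-laden MDM 718 (adjusted p = 0.0622).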

How the results depend on the processing

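Of the S100a log2 fold changes, 200 of 232 under another tool, scaling, filter, block or set of groups and 324 of 360 with 1 library left out kept their direction and their side of the threshold. S100a6 and S100a11 in MDM against microglia and S100a11 in lipid-laden against other MDM kept both in all of them. Depth limits S100a4, S100a8 and S100a9. The cause of the changes below was not tested.

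With DESeq2, 798 genes were called between the lipid-laden origins, 169 with lipid load in microglia, 1955 in MDM and 964 in the difference, and of the 8 genes 4 were called in MDM and 3 in the difference. With limma-voom, 2 of the 8 were called between the lipid-laden origins and 4 with lipid load in MDM. Without a filter 17 genes were called in microglia and 2 of the 8 in the difference. With only the 2 groups compared, 160 genes and 0 of the 8 were called between the lipid-laden origins and 4 of the 8 in MDM. The number of all genes called is not given here for these limma-voom counts, the difference without a filter or MDM with 2 groups. Whether the 8 stand out in those fits cannot be read from the member counts.

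With the number as a replicate block, 119 genes were called in microglia and 657 in the difference, where 3 of the 8 passed (S100a6, S100a10 and S100a11). In MDM and between the non-lipid-laden origins same-numbered libraries did not all deviate together (r 0.0272 to 0.123 and 0.0152 to 0.150). There the block gained S100a6 (adjusted p = 0.00477) and S100a10 (0.00493) and lost S100a9 (0.0549) in MDM, and gained S100a1 (0.0403) and lost S100a4 (0.0510) between the origins. The block changed no other call of the 8.

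The following log2 fold changes turned sign, most of them from values near 0. That of S100a1 in MDM was -0.025 with DESeq2, -0.056 with limma-voom, -0.025 with DESeq2's size factors in edgeR, -0.0047 without a filter, -0.20 with the block and -0.00048 with 2 groups. Between the lipid-laden origins S100a1 was at -0.0034 with DESeq2 and with its size factors in edgeR, and at -0.097 with the block. With limma-voom S100a4 in microglia was at -0.14, and S100a8 in the difference, which was not near 0 in edgeR (1.16 ± 1.55 SE), was at -0.19.

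With each library left out in turn, 3 to 5 of the 8 were called in MDM against microglia, here with S100a4 counted where it passed. In lipid-laden against other MDM 1 to 3 were called, and in the difference 0 to 2. Genes called ranged from 2760 to 3114 in MDM against microglia, 0 to 59 in microglia, 191 to 465 in the difference, 175 to 377 between the lipid-laden origins and 674 to 1049 in MDM. The log2 fold changes that changed sign ranged, for S100a8, from -0.0085 to 1.74 in MDM against microglia, -0.11 to 2.36 in microglia and -0.22 to 2.25 in the difference. For S100a4 and S100a9 in microglia they ranged from -0.34 to 0.69 and -0.35 to 2.02. Between the lipid-laden origins they ranged from -0.29 to 0.29 for S100a1, -0.032 to 0.60 for S100a10 and -0.24 to 0.25 for S100a13, and in MDM from -0.31 to 0.19 for S100a1.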
